A study of Mus musculus with 4 samples.

Results

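Hearts that received YAP5SA were compared with control hearts whose mothers were likewise on a high-fat diet (HFD). Whole wild-type mouse hearts were taken at postnatal day 12 and read by single-nucleus RNA sequencing, with 1 library for YAP5SA on HFD and 1 for control on HFD. Pups had been injected at postnatal day 7 with AAV9-cTnT-YAP5SA or with saline, and the maternal diet lasted 5 days. YAP5SA is a form of the transcriptional co-activator YAP whose inhibitory phosphorylation sites are changed to alanine, carried by an adeno-associated virus and driven by the cardiac troponin T promoter, which is active in cardiomyocytes. The control received saline, so the vector and its cargo cannot be told apart. A further pair of libraries, YAP5SA on chow and control on chow, is used only to show where the HFD pair differs. How many hearts a library holds is not stated in the sources used here. Groups follow the sample titles, but the labels conflict: the treatment entry of control on HFD names maternal chow, and that of YAP5SA on chow names the high-fat diet. If the treatment entries hold, diet differs within each pair along with YAP5SA, and both cannot be told apart. The assignment to YAP5SA or saline is the same in all labels.

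Nuclei were members of the comparison if they held at least 500 genes, at most 5% mitochondrial UMIs (unique molecular identifiers, the molecule counts of the assay) and either a cardiomyocyte or a non-cardiomyocyte share of 6 muscle transcripts. The 6 gate transcripts were Ttn, Ryr2, Trdn, Ctnna3, Rbm20 and Tnnt2. At least 0.8% of a nucleus's UMIs from them made it a cardiomyocyte nucleus, and less than 0.5% put it among the other cells. This gave 18799 nuclei, 8269 from control and 10530 from YAP5SA, of 33583 in the 4 libraries. The 128 control and 196 YAP5SA nuclei between both limits were left out.

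In the Hippo pathway, the LATS kinases phosphorylate YAP and keep it out of the nucleus. When YAP reaches the nucleus it binds TEAD transcription factors and switches on genes for growth, the cytoskeleton and the extracellular matrix. In the weeks after birth, heart muscle cells stop dividing and turn from glucose to fatty acids as fuel, a change that runs through the nuclear receptor PPARα, which fatty acids activate.

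The HFD libraries held 9145 barcodes and 57509435 UMIs in control and 11158 barcodes and 61191454 UMIs in YAP5SA, and 8397 and 10726 nuclei passed the filters on genes and mitochondrial UMIs. Cardiomyocyte nuclei numbered 3659 in control, with a median of 6497 UMIs, and 5881 in YAP5SA, with a median of 5233 UMIs. They were 43.6% of filtered nuclei in control (exact 95% interval 42.5 to 44.6) and 54.8% in YAP5SA (53.9 to 55.8), against 63.1% and 61.1% in control and YAP5SA on chow. Gate transcripts made up a median of 4.9% of UMIs in control cardiomyocyte nuclei and 3.8% in YAP5SA, and 4.95% and 13% of these nuclei lay in the lowest band of the gate, from 0.8 to 1.6%. With a gate of 1.6% the cardiomyocyte shares were 41.4% in control and 47.7% in YAP5SA on HFD. The part of the gate in the remaining difference was not tested. Both HFD libraries held Xist, the transcript of the inactive X chromosome (146049 and 154625 UMIs), and 17 UMIs each of the Y-linked gene Ddx3y. The chow pair differed there, with 106671 and 298 UMIs of Xist and 1 and 4760 of Ddx3y in control and YAP5SA. Yap1 itself, at chr9:7931999-8004596 of mm10, had 122 and 121 CPM (the UMIs of a gene per 1e6 UMIs of the sum) in the HFD cardiomyocytes, and its reads do not separate the mouse gene from a transgene, so they do not check the labels. The 2 HFD libraries shared 31 barcodes, 0.369% of the smaller.

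With 1 library in a group, no test of the difference between groups is possible. UMIs were summed over the nuclei of a class in each library, and a log2 fold (YAP5SA over control, prior of 0.5 counts) is given with an exact 95% interval that covers the error of counting but no difference between animals. A gene was measured if its mean over the HFD pair reached 10 CPM, and it counts below as higher or lower if it was at least 2-fold apart. Where 4 values stand together, the first 2 are control and YAP5SA on chow and the last 2 are control and YAP5SA on HFD.

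In cardiomyocytes, transcripts that control hearts hardly contained were abundant in YAP5SA hearts on HFD, and several regulators of the differentiated state were low. Of 9270 measured genes, 694 (7.49%) were higher and 285 (3.07%) lower in YAP5SA on HFD, and the median over all measured genes was 0.07 on the log2 scale. Scaling by trimmed means or by the median of ratios moved that median to -0.065 and -0.086 and the share of higher genes among those past 2-fold from 70.9% to 56.1% and 53.4%. Gene list medians below, which are given with the main scaling, moved with it. Apart from predicted genes, the steepest fold was that of Slc22a22, a solute carrier of the organic anion family, with 0.267, 86.03, 0.229 and 35.5 CPM. Both YAP5SA libraries held it and neither control did beyond a few UMIs (7 in control on HFD), which gave a log2 fold of 7.18 (95% interval 6.23 to 8.59) on HFD.

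Cemip, which encodes a protein that degrades hyaluronan (chr7:83932857-84086502 of mm10), stood at 4.16, 772, 5.82 and 521 CPM. It was near absent from both control libraries and high in both YAP5SA libraries, with a log2 fold of 6.48 (6.27 to 6.7) on HFD and 7.53 on chow. Sema3e, a secreted semaphorin, had 2.798, 191, 1.24 and 111 CPM and a log2 fold of 6.46 (6.01 to 6.97). The type IV collagen chain Col4a3 had 20.9, 893, 17.4 and 481 CPM, again low in both controls and high in both YAP5SA libraries (4.79, 4.67 to 4.92). Pak3, a p21-activated kinase of the cytoskeleton, showed the same order with 10.2, 661, 10.5 and 351 CPM and 5.06 (4.9 to 5.23). A further 5 genes of the same kind were the cytokine Tnfsf15 (6.26), the patched-domain gene Ptchd4 (6.1), the epithelial gene Scel (5.97), the collagen Col12a1 (5.41) and Plcxd2 (4.7). Wwc1, a Hippo component that is itself a YAP target, closed the list at 2.07, 151, 2.72 and 70.2 CPM and 4.68 (4.38 to 5.03). Of these 12 genes, 11 were also at least 2-fold higher in YAP5SA on chow. The exception was the peptide transporter Slc15a2, with 16.5, 7.51, 0.524 and 23.1 CPM, where control on HFD was the library that stood apart.

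Genes at the low end behaved less alike between diets. Nr4a3, an orphan nuclear receptor of the immediate early class (chr4:48045153-48086447 of mm10), had 1.57, 9.15, 66.9 and 1.12 CPM. Control on HFD was far above the other 3 libraries, so that the log2 fold was -5.88 (-6.36 to -5.47) on HFD and 2.53 on chow. The stress-induced transcription factor Atf3 (4.56, 10.7, 28.4 and 2.07 CPM) and the Nr4a3 relative Nr4a1 (9.36, 39.02, 81.1 and 14.05 CPM) were likewise highest in control on HFD, with log2 folds of -3.78 and -2.53. Fggy, a carbohydrate kinase (chr4:95557507-95926939 of mm10), had 49.9, 21.8, 53.4 and 1.76 CPM, and YAP5SA on HFD was the low library (-4.91, -5.29 to -4.58). Another set was low in both YAP5SA libraries. It held Hopx, a homeodomain protein of differentiating cardiomyocytes, at 239, 85.1, 217 and 37.3 CPM (-2.54, -2.62 to -2.46), and Plekhh1 at 162, 33.5, 156 and 17.7 CPM (-3.14, -3.26 to -3.03). The neuronal splicing factor Srrm4 (-3.4), Phf24 (-3.07), Inka2 (-2.57) and Fam222a (-2.57) also belonged to it. Of the 12 lowest genes, 8 were at least 2-fold lower on chow too and 3 were at least 2-fold higher there. Dct, an enzyme of melanin synthesis, was the remaining one (-2.93 on HFD and -0.69 on chow).

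**Figure D1:**
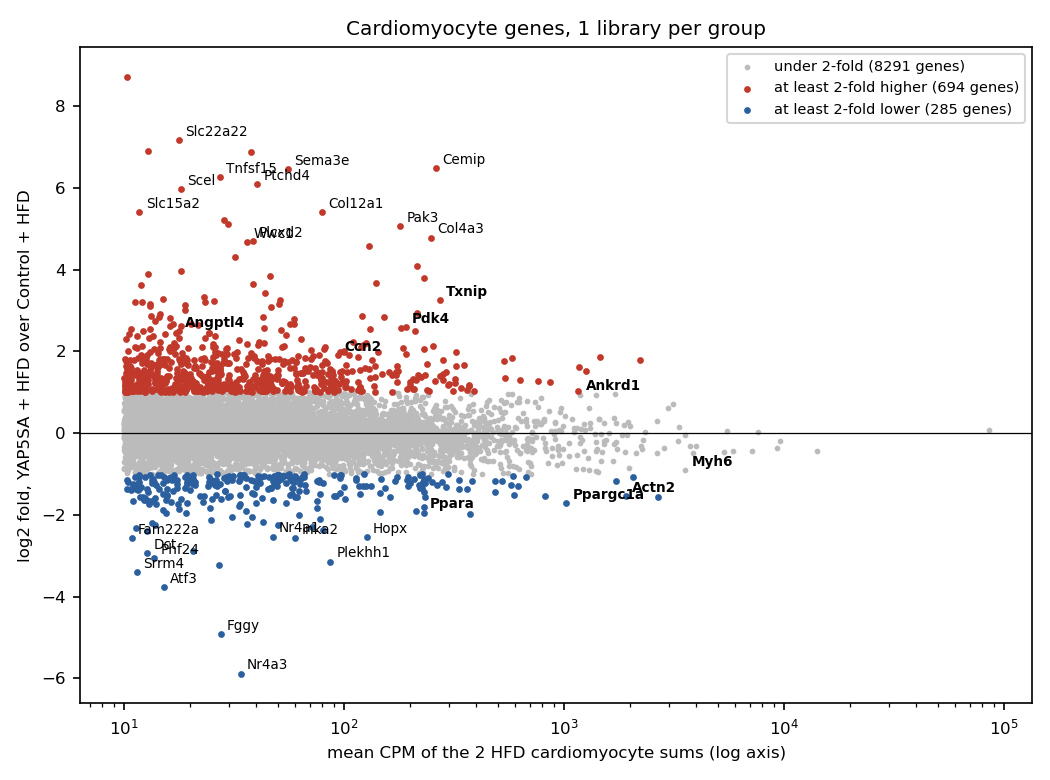
Log2 fold of YAP5SA on HFD over control on HFD (vertical axis) against mean CPM of both cardiomyocyte sums (horizontal log axis), 1 point per measured gene. Red points are the 694 genes at least 2-fold higher and blue points the 285 at least 2-fold lower. Slc22a22 and Cemip sit at the top, Nr4a3 and Fggy at the bottom.

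Many known YAP targets were higher on HFD, by less than on chow in most cases, and that difference between pairs was not tested. Of 23 measured YAP target genes, 10 were higher, 0 were lower and 20 lay above 0, with a median log2 fold of 0.84. This stands against 56.8% of all measured genes above 0, 7.49% higher and 3.07% lower. On chow the same list had 15 higher and 1 lower and 22 above 0 with a median of 1.55. There 49.6% of all genes lay above 0, 7.13% of genes were higher and 5.18% lower. The HFD value was the smaller of both in 20 of the 23, as it was in 43.6% of all measured genes. Ccn2, a matricellular growth factor (chr10:24595442-24598683 of mm10), had 33.5, 332, 39.7 and 149 CPM. Both YAP5SA libraries were above both controls, and the log2 fold was 1.91 (1.82 to 2.0) on HFD and 3.31 on chow. Its relative Ccn1 had 11.99, 163, 16.7 and 61.8 CPM and 1.89 (1.75 to 2.03). Vgll3, a co-factor that binds TEAD as YAP does, had 6.13, 187, 10.2 and 91.4 CPM and 3.16 (2.99 to 3.33), while Amotl2, a YAP inhibitor of the angiomotin family, had 30.9, 213, 27.9 and 115 CPM and 2.04 (1.94 to 2.15). In all 4 genes YAP5SA on chow was highest and YAP5SA on HFD next. Ankrd1, a muscle ankyrin repeat gene often used to read YAP activity, had 1026, 2746, 811 and 1562 CPM and did not reach 2-fold on HFD (0.95, 0.92 to 0.97). Axl, Amotl1 and F3, the 3 members below 0 on HFD, had log2 folds of -0.18, -0.11 and -0.06 (named here after their values were seen).

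Some components of the Hippo pathway itself were higher, where 7.49% of all measured genes were higher and 3.07% lower. Of 25 measured Hippo components, which include restraints of YAP as well as its TEAD partners, 6 were higher and 0 lower (median 0.27) and 8 lay below 0. Vgll3, Wwc1 and Amotl2 were among the higher ones. Lats2, the kinase that restrains YAP, had 86.4, 212, 110.4 and 223 CPM (1.01, 0.96 to 1.07), and both YAP5SA libraries stood above both controls. The TEAD co-factor Vgll4, which competes with YAP, had 95.5, 337, 93.3 and 252 CPM (1.44, 1.38 to 1.5). Tead4 had 4.697, 45.2, 7.46 and 29.3 CPM (1.97, 1.77 to 2.19), with chow again the higher of the YAP5SA libraries.

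**Figure D2:**
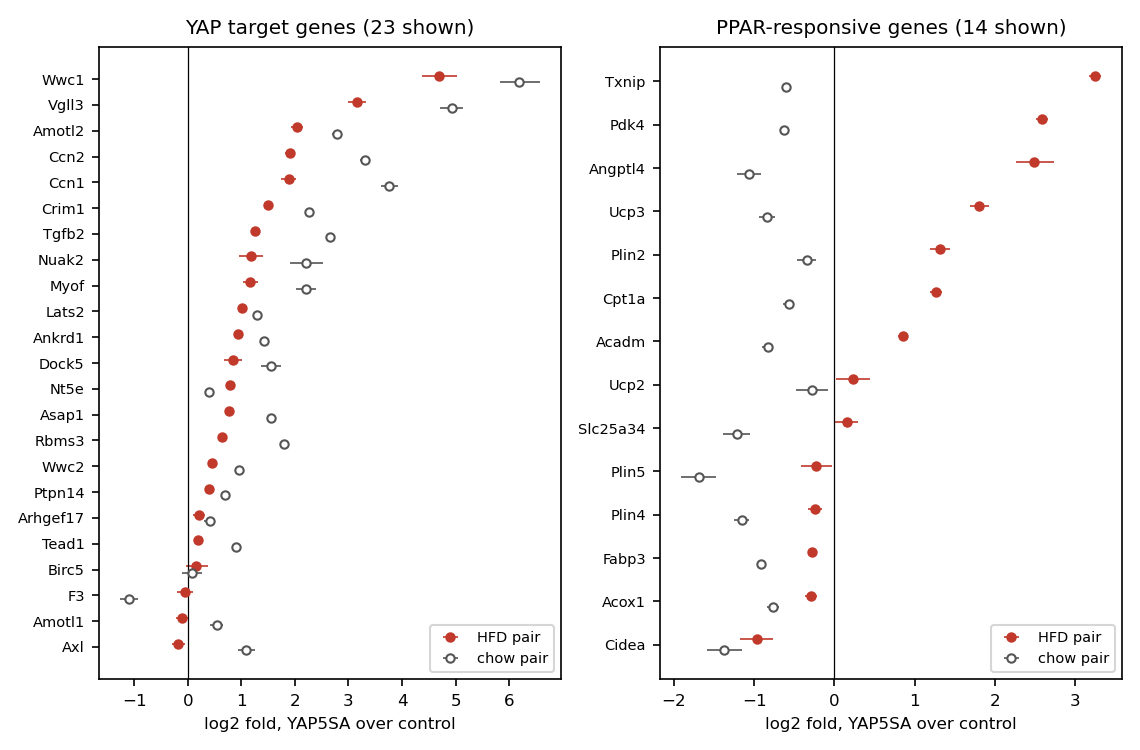
Log2 fold of YAP5SA over control in cardiomyocytes (horizontal axis) for each measured YAP target gene (left, 23 genes) and for 14 of the 15 measured PPAR-responsive genes (right), filled for the HFD pair and open for the chow pair. Bars are 95% counting intervals. The chow points lie to the right of the HFD points for 20 of 23 YAP targets (43.6% of all measured genes), and to the left of 0 for 14 of 14 PPAR-responsive genes.

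TEAD factors recognise a short core, and the RefSeq promoter table (GRCm38.p6) was searched for it in the 250 bases before each annotated start. The letters searched were GGAATG and, for the other strand, its reverse complement CATTCC. They occurred in 12.6% of all 32851 windows, in 12.9% of the 7155 measured genes with an entry, in 17.3% of the 411 higher genes with an entry (of 694) and in 15.7% of the 210 lower genes with an entry (of 285). Of the 23 measured YAP target genes, 17 had an entry and 8 of these (47.1%) held the letters, while 1 of 11 PPAR-responsive genes with an entry did. In 4 of the 8 YAP targets the letters lay before the first annotated exon base of any transcript in the window. A match is a description of these letters and not a binding site. The windows of 3 strongly higher genes, chosen after their values were seen, are printed 5′ to 3′ on the gene's strand with the match in capitals. Ccn1 lies on the minus strand at chr3:145649986-145650235, with its match 103 bases before the start. Vgll3 lies on the plus strand at chr16:65814939-65815188, with its match 63 bases before the start. The window of Ptchd4 lies on the plus strand at chr17:42315697-42315946, with its match 146 bases before the start.
Ccn1: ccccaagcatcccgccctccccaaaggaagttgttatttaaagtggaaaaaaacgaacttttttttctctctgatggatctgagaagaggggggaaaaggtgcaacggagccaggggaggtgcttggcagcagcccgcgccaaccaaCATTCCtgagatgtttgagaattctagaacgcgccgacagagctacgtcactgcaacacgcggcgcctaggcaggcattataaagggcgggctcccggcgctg
Vgll3: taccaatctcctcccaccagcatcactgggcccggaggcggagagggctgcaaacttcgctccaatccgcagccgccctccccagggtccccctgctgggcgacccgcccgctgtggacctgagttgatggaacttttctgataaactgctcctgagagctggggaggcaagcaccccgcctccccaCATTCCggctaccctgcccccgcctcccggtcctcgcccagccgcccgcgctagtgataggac
Ptchd4: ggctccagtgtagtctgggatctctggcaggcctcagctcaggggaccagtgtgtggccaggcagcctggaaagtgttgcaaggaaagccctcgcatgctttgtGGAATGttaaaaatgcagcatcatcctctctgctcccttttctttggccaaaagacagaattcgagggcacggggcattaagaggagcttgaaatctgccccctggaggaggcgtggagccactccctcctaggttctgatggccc

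The median of the PPAR-responsive list lay above 0 in the HFD pair and below it in the chow pair. The list holds genes that fatty acids induce through PPARs, and also Txnip. Of 15 measured PPAR-responsive genes, 7 were higher and 0 lower in YAP5SA on HFD, and 10 lay above 0, with a median of 0.86 on the log2 scale. In the chow pair 0 were higher, 6 were lower and all 15 lay below 0, as did 50.4% of all measured genes, with a median of -0.84. The shares over all measured genes were 7.49% higher and 3.07% lower on HFD, and 7.13% and 5.18% on chow. Pdk4, the kinase that shuts pyruvate dehydrogenase and so spares glucose (chr6:5483351-5496309 of mm10), had 400.0, 259.9, 54.6 and 328 CPM. Control on HFD was the low library, and the other 3 lay within a narrower range, which gave a log2 fold of 2.59 (2.51 to 2.66) on HFD and -0.62 on chow. Angptl4, an inhibitor of lipoprotein lipase, had 34.4, 16.5, 5.37 and 30.3 CPM (2.49, 2.26 to 2.74), and Ucp3, a mitochondrial carrier induced by fatty acids, had 68.03, 38.1, 22.5 and 78.8 CPM (1.81, 1.69 to 1.93). Cpt1a, the gate for fatty acid entry into mitochondria, had 137, 92.7, 57.6 and 138 CPM (1.27, 1.19 to 1.34). In each of these 3 genes, control on HFD was again lowest and YAP5SA on HFD near the level of control on chow. Txnip, a member of this list that is better known as a brake on glucose uptake that binds thioredoxin (chr3:96557957-96561883 of mm10), had 355, 235, 52.03 and 495 CPM. Control on HFD lay below the other 3 libraries, and the log2 fold was 3.25 (3.18 to 3.33). Of all 15 measured genes of the list, 7 had their lowest value of the 4 libraries in control on HFD, as did 21.4% of all measured genes. The comparison with control on HFD is what made genes count as higher, so this adds no support. How far the values of control on HFD reflect its diet was not tested, given the conflict in its labels.

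Several regulators of these genes were lower. Of 25 measured metabolic regulators, 0 were higher and 4 lower (median -0.43), where 7.49% of all measured genes were higher and 3.07% lower. Ppara, which encodes the fatty acid receptor itself, had 275, 83.99, 366 and 95.3 CPM, low in both YAP5SA libraries, with a log2 fold of -1.94 (-2.0 to -1.89). Ppargc1a, the co-activator PGC-1α that drives mitochondrial genes, had 614, 364, 1569 and 481 CPM. Control on HFD was its highest library, and the log2 fold was -1.71 (-1.73 to -1.68). The partner receptor Rxrg (15.4, 4.11, 18.6 and 8.54 CPM, -1.12) and Pparg (7.93, 7.51, 17.6 and 8.64 CPM, -1.02) were the other lower members, and Esrra had a log2 fold of -0.88.

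The enzymes and carriers of fatty acid uptake and oxidation did not differ as a block. Of 28 measured, 2 were higher and 2 lower, with a median of 0.07 that turned to -0.06 and -0.08 under the other scalings. On chow, by contrast, 0 were higher, 14 were lower and all 28 lay below 0 (median -0.99). Over all measured genes 7.49% were higher and 3.07% lower on HFD, and 7.13% and 5.18% on chow. Acaa2, which cuts acetyl-CoA from the chain, had 107, 53.2, 42.9 and 88.4 CPM (1.04, 0.95 to 1.13), and Hadha, of the trifunctional protein, had 390.0, 197, 205 and 311 CPM (0.6, 0.55 to 0.64). For both genes control on chow was highest. The muscle isoform Cpt1b had 163, 57.1, 130.4 and 63.9 CPM and was low in both YAP5SA libraries (-1.03, -1.1 to -0.96). Fabp4, a fatty acid binding protein also found in endothelial cells, had 50.1, 42.4, 80.6 and 35.7 CPM (-1.17), and the lipase Lpl had a log2 fold of -0.86. Fabp4 is also one of 11 endothelial markers, of which 4 of 10 measured were lower in the cardiomyocyte sum (summed CPM 733 in control and 400 in YAP5SA), and the part of such RNA in its value was not tested.

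Downstream of fatty acid entry, most genes lay below 0 without reaching 2-fold. Among all measured genes, 43.2% lay below 0, 7.49% were higher and 3.07% lower. Of 28 measured genes of pyruvate entry and the TCA cycle, 0 were higher, 3 lower and 24 below 0 (median -0.38). The lower ones were Ogdh, of the oxoglutarate dehydrogenase complex (558, 282, 726 and 320.3 CPM, -1.18), the pyruvate carrier Mpc1 (157, 58.9, 132 and 61.6 CPM, -1.09) and the succinate dehydrogenase subunit Sdhb (60.7, 31.8, 69.3 and 30.9 CPM, -1.17). All 3 were low in both YAP5SA libraries. Of 36 measured subunits of respiratory complex I, 31 lay below 0 and 0 were past 2-fold (median -0.27), and of 41 of complexes II to V, 34 lay below 0 and 1, Sdhb, was lower (median -0.29). In glycolysis and glucose uptake, 26 measured genes held 0 higher and 1 lower, the fructose bisphosphate regulator Pfkfb2 (89.4, 32.9, 115 and 41.1 CPM, -1.49), while Gapdh (0.81) and Eno1 (0.75) lay above 0. Among 19 genes of ketone and branched-chain amino acid breakdown, 1 was higher and 1 lower, the ketone-using enzyme Oxct1 (248, 224, 267 and 121 CPM, -1.14).

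**Figure D3:**
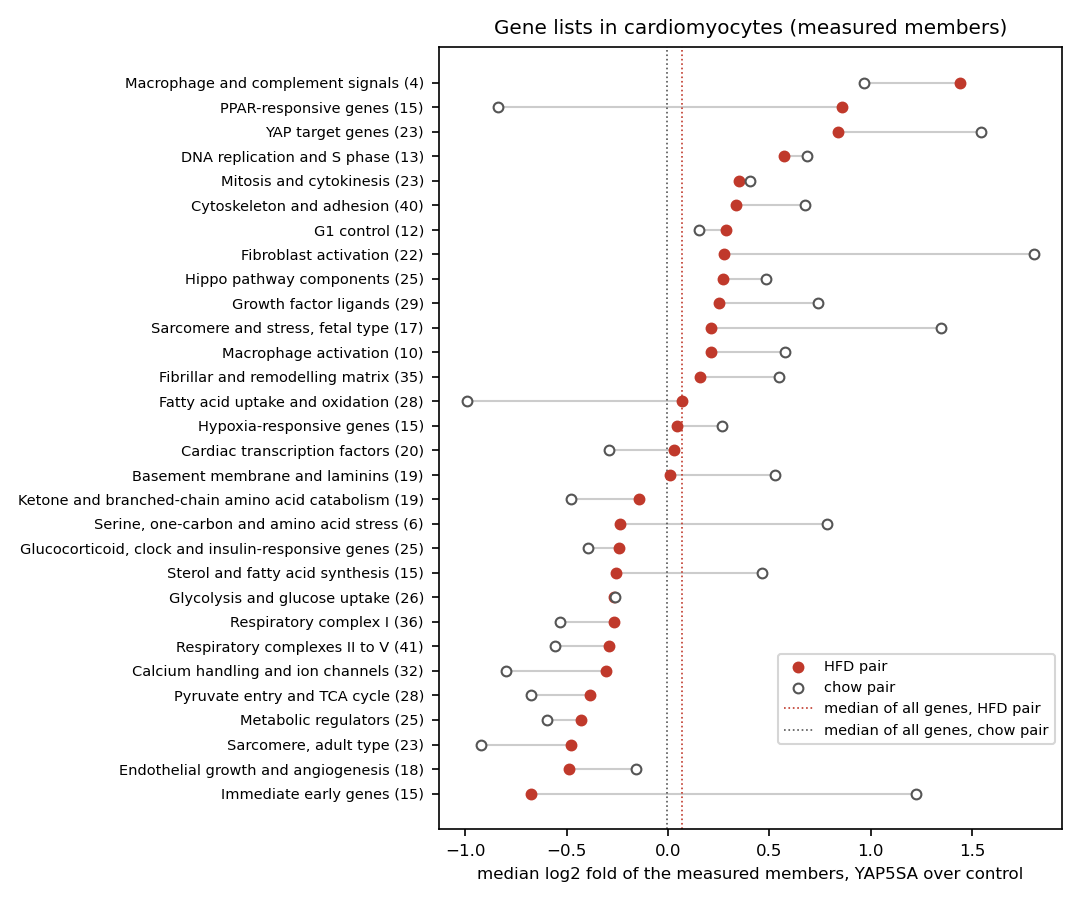
Median log2 fold of the measured members of each gene list in cardiomyocytes (horizontal axis), filled for the HFD pair and open for the chow pair, with the number of members in brackets and dotted lines at the medians of all measured genes. PPAR-responsive genes (-0.84 on chow, 0.86 on HFD) and immediate early genes (1.22 on chow, -0.68 on HFD) lie on opposite sides of 0 in the pairs.

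Most genes of the contractile apparatus lay below 0. Of 23 adult-type sarcomere genes, 0 were higher, 2 lower and 19 below 0 (median -0.48). Actn2, the α-actinin of the Z disc, had 1522, 1254, 2844 and 983 CPM (-1.53, -1.55 to -1.52), with control on HFD highest, and Ckm, the muscle creatine kinase, had 68.1, 21.1, 83.9 and 25.5 CPM (-1.72, -1.82 to -1.61). Myh6, the adult myosin heavy chain, had 5159, 2317, 4655 and 2481 CPM, low in both YAP5SA libraries though under 2-fold on HFD (-0.91, -0.92 to -0.9). The small muscle protein Smpx ran the other way (0.6). Genes of the fetal and stressed heart, which on chow had 9 of 17 higher (median 1.35), had 0 higher and 3 lower on HFD (median 0.21). Over all measured genes 7.13% were higher and 5.18% lower on chow, and 7.49% and 3.07% on HFD. The natriuretic peptide genes Nppa (57.2, 337, 66.6 and 113 CPM) and Nppb (122, 526, 83.3 and 155 CPM) lay above 0 on HFD but did not reach 2-fold, at 0.76 and 0.9. Xirp2 (167, 116, 351 and 154 CPM, -1.19) and Nrap (246, 231, 459 and 207 CPM, -1.15), which build nascent and intercalated disc structures, were lower, as was Ankrd23 (-1.12).

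Among 32 genes of calcium handling and ion channels, 1 was higher and 4 lower (median -0.30). The shares over all measured genes were 7.49% higher and 3.07% lower. Kcnip2, an auxiliary subunit of the channels of the fast transient outward current, had 63.5, 6.56, 57.04 and 15.2 CPM (-1.9, -2.04 to -1.77). The cAMP phosphodiesterase Pde4d had 3697, 771, 4017 and 1355 CPM (-1.57, -1.58 to -1.55), and the potassium channel Kcnn2 had 923, 286, 875 and 307 CPM (-1.51). These 3 were low in both YAP5SA libraries, most of all on chow, and the junctional protein Jph2 was at -1.3. Of 20 cardiac transcription factors, 2 were higher and 3 lower (median 0.03). Besides Hopx, the lower ones were Tbx20, a T-box factor that adult heart function needs (805, 502, 1227 and 425 CPM, -1.53), and Myocd, the co-activator of serum response factor (1734, 1176, 2407 and 1066 CPM, -1.17). Irx3, a factor of the conduction system, had 19.2, 13.9, 6.74 and 19.7 CPM and was higher (1.54), with control on HFD the low library, and so was Tbx18 (1.08).

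Cell cycle genes lay above 0, most of them under 2-fold, where 56.8% of all measured genes lay above 0 and 7.49% were higher. All 13 measured S phase genes lay above 0 and 2 were higher (median 0.57): Mcm7, of the replicative helicase (8.495, 11.5, 7.49 and 17.4 CPM, 1.21, 0.99 to 1.44), and Ccne2, a cyclin of S phase entry (11.4, 12.6, 9.42 and 19.9 CPM, 1.07, 0.88 to 1.28). All 23 measured mitosis genes lay above 0 as well and 0 were past 2-fold (median 0.35). The highest was Ncapg, a condensin subunit (6.26, 9.67, 7.17 and 13.1 CPM, 0.87, 0.64 to 1.1), and Ect2, which sets the cleavage furrow, had 48.97, 77.1, 32.04 and 55.8 CPM (0.8, 0.69 to 0.91). Under trimmed-mean scaling, 20 of 22 measured mitosis genes and 12 of 13 S phase genes lay above 0, and without marked doublets 18 of 21 mitosis genes did. Trimmed-mean and median-of-ratios scaling each left 1 S phase gene higher. The spread between hearts is unknown, and 12 G1 control genes had a median of 0.29 with 0 past 2-fold.

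Matrix genes named above belonged to longer lists in which most members stayed near 0. Over all measured genes 7.49% were higher and 3.07% lower. Of 19 basement membrane genes, 4 were higher and 0 lower (median 0.01): Col4a3, its partner chain Col4a4 (26.1, 889, 30.9 and 433 CPM, 3.81, 3.71 to 3.9), Col4a5 (197, 462, 206 and 419 CPM, 1.03) and the laminin chain Lama3 (5.797, 10.8, 7.56 and 16.4 CPM, 1.12). Both YAP5SA libraries were above both controls in each. Of 35 fibrillar and remodelling matrix genes, 7 were higher and 1 lower (median 0.16). They held Col8a1, a short-chain collagen, at 12.9, 283, 20.3 and 261 CPM (3.69, 3.57 to 3.81), and Thbs4, a thrombospondin, at 5.33, 55.02, 4.19 and 33.7 CPM (3.0, 2.75 to 3.28). Tnc, the tenascin of wounded and developing tissue, had 12.3, 187, 28.4 and 86.1 CPM (1.6, 1.49 to 1.71). Elastin, Eln, was the lower one at 108, 86.4, 214 and 77.8 CPM (-1.46, -1.52 to -1.4), where control on HFD stood highest. Fibroblast markers summed to 1126 CPM in control and 813 in YAP5SA in the cardiomyocyte sums, with 1 of 9 measured markers lower and 0 higher, and their part in these matrix values was not tested. Of 22 genes of fibroblast activation, several shared with the matrix lists, 9 were higher and 0 lower (median 0.28).

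Of 40 cytoskeleton and adhesion genes, 6 were higher and 2 lower (median 0.34), where 7.49% of all measured genes were higher and 3.07% lower. The integrins Itga3 (26.3, 72.2, 13.1 and 59.6 CPM, 2.18) and Itga7 (35.6, 118, 29.3 and 104 CPM, 1.83), receptors for laminin, were both among the higher, with Pak3 and Actn4, a non-muscle α-actinin (222, 661, 183 and 412 CPM, 1.17). Actg1, the cytoplasmic γ-actin, was lower (381, 313, 417 and 166 CPM, -1.33), as was the myosin light chain Myl9 (-1.29). Of 29 growth factor ligands, 9 were higher and 2 lower (median 0.25). Inhba, the activin A subunit, had 6.16, 106, 5.99 and 86.2 CPM (3.84, 3.63 to 4.07), near the floor in both controls. Tgfb3 had 4.198, 88.3, 7.85 and 27.8 CPM (1.82, 1.62 to 2.03) and Tgfb2 72.8, 458, 103 and 245 CPM (1.25, 1.2 to 1.31), while Bmp4 was at 1.69 and Angpt1, the ligand of the endothelial receptor TIE2, was lower at -1.09, as was Egf at -1.0. Among signals to macrophages, 3 of 4 measured genes were higher. Csf1, the growth factor of macrophages, had 16.6, 56.5, 16.9 and 60.9 CPM (1.85, 1.71 to 1.99), the leukocyte adhesion receptor Vcam1 had 16.9, 127, 15.4 and 71.7 CPM (2.21, 2.07 to 2.36), and the innate receptor Tlr4 had 405, 456, 258 and 526 CPM (1.03, 0.99 to 1.07). Macrophage markers summed to 162 and 216 CPM in the control and YAP5SA cardiomyocyte sums, with 3 of 7 measured markers higher and none of the 11 at 0, and their part in these values was not tested.

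Immediate early genes, which answer stimuli within minutes, lay mostly below 0 on HFD and above 0 on chow. Of 15 immediate early genes, 2 were higher, 4 lower and 11 below 0 on HFD (median -0.68), against 9 higher and 0 lower on chow (median 1.22). The shares over all measured genes were 7.49% higher and 3.07% lower on HFD, and 7.13% and 5.18% on chow. Control on HFD had the highest value of the 4 libraries in 6 of the 15, where 22.2% of all measured genes did. Genes below 0 are by definition higher in control on HFD than in YAP5SA on HFD, so this count adds no support. Besides Nr4a3, Atf3 and Nr4a1, the lower ones included Nr4a2 (8.63, 9.73, 18.9 and 6.99 CPM, -1.44, -1.65 to -1.23). Ier3 (11.03, 52.7, 11.4 and 28.99 CPM, 1.35) and the AP-1 subunit Junb (7.06, 25.6, 9.26 and 20.3 CPM, 1.13) were higher. Of 25 genes that respond to glucocorticoids, the clock or insulin, 0 were higher and 3 lower (median -0.24). Irs2, the insulin receptor substrate, had 41.6, 45.3, 134 and 26.2 CPM (-2.36, -2.46 to -2.26), and the clock gene Per1 had 17.3, 15.9, 40.6 and 9.26 CPM (-2.13, -2.31 to -1.97), control on HFD being the high library in both. Per3 was the third (-1.15). Of 15 hypoxia-responsive genes, 2 were higher, the collagen prolyl hydroxylase P4ha1 (39.9, 205, 50.04 and 142 CPM, 1.5) and Ndrg1 (1.06). The hour at which hearts were taken is not stated in the sources used here, and its part in these lists was not tested.

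Set beside the chow pair, the HFD contrast shared part of its genes. Of 8746 genes measured in both pairs, 560 were higher on HFD and 623 on chow, with 283 higher in both (50.5% of the HFD set and 45.4% of the chow set). For lower genes these were 246 and 451 with 103 in both (41.9% and 22.8%). Across these genes the log2 folds of the pairs correlated with r = 0.67 (Pearson) and rho = 0.55 (Spearman), a description over genes that are not independent. No library is common to the pairs. The chow pair also set a library with few Xist UMIs against one with many, and the diet and that difference cannot be told apart between pairs. Of the 8746 genes, 13 were at least 2-fold apart in opposite directions, 8 of them higher on HFD, beside the 283 and 103 that went the same way. The cytoskeletal adaptor Baiap2l1 had 137, 418, 319 and 146 CPM, highest in YAP5SA on chow, and its log2 fold was -1.13 on HFD and 1.61 on chow. Neb, the thin filament ruler nebulin, had 91.2, 42.6, 53.2 and 129 CPM, and its signs were the reverse (1.28 and -1.1). Art1, a muscle ADP-ribosyltransferase (23.3, 11.4, 45.4 and 112 CPM), and Pde10a, a cyclic nucleotide phosphodiesterase (18.4, 41.9, 85.97 and 30.7 CPM), also lay on opposite sides, at 1.3 and -1.49 on HFD.

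The cardiomyocyte sums pooled nuclei that differed among themselves. Each nucleus was thinned to 2000 UMIs, which left out 78 shallower control and 157 YAP5SA nuclei, and the UMIs of 10 strongly higher genes were counted in it (Cemip, Sema3e, Ptchd4, Col12a1, Pak3, Col4a3, Col4a4, Wwc1, Vgll3 and Col8a1, chosen after their values were seen). Of 5724 YAP5SA nuclei, 3186 (55.7%, exact 95% interval 54.4 to 57.0) held 0 such UMIs, 818 (14.3%) held 1, and 1720 (30%, 28.9 to 31.3) held 2 or more. Of 3581 control nuclei, 3126 (87.3%) held 0 and 84 (2.35%, 1.88 to 2.9) held 2 or more. These classes are ranges of a score, not cell types, and the 818 nuclei with 1 UMI lie at the limit. The median depth before thinning was 4826 UMIs for YAP5SA nuclei with 0 and 6719 for those with 2 or more, gate transcripts made up 4.53% and 1.95% of UMIs, and 6.78% and 16.3% were marked as doublets. Mean shares of other cell types' markers in nuclei with 0 and with 2 or more were 0.0485% and 0.0766% of UMIs for 10 fibroblast markers, 0.0214% and 0.0302% for 11 endothelial and 0.000758% and 0.00471% for 8 epicardial markers, each higher in the latter. They were 0.0152% and 0.0143% for 11 macrophage and 0.0383% and 0.0179% for 10 pericyte markers. The 11 cardiomyocyte markers made up 1.13% and 0.528%, and the part of doublets and free RNA in the classes was not tested.

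Values in these ranges were compared without a test, since the 10 genes define them. YAP5SA nuclei with 0 UMIs of the 10 genes already differed from control nuclei with 0 in fuel genes: Pdk4 had 57.96, 477 and 133 CPM in control nuclei with 0, YAP5SA nuclei with 0 and YAP5SA nuclei with 2 or more. Txnip followed the same order with 49.8, 651 and 283 CPM, and Angptl4 with 4.96, 38.1 and 19.6 CPM. All 3 were highest in the YAP5SA nuclei with 0 UMIs of the 10 genes. The median log2 fold of the PPAR-responsive list was 1.19 for YAP5SA over control among nuclei with 0, and -1.23 for nuclei with 2 or more over nuclei with 0 within the YAP5SA library. YAP targets ran the other way, at 0.28 and 1.22, with Ccn2 at 39.3, 109.6 and 208 CPM and Inhba at 5.503, 20.7 and 187 CPM. A different set was low at both steps: Ppara had 386, 123 and 54.9 CPM, Ppargc1a 1645, 630.0 and 280.1 CPM and Hopx 221, 47.9 and 22.5 CPM. Nr4a3, with 68.6, 0.862 and 1.28 CPM, Fggy, with 51.8, 1.72 and 1.76 CPM, and Irs2, with 137, 26.03 and 25.03 CPM, were low in YAP5SA nuclei of both ranges alike. Mitosis genes had medians of -0.27 and 1.37, so that among nuclei with 0 UMIs of the 10 genes they lay below control, and adult sarcomere genes had medians of -0.20 and -1.02. The all-gene medians were 0.06 and 0.04.

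**Figure D4:**
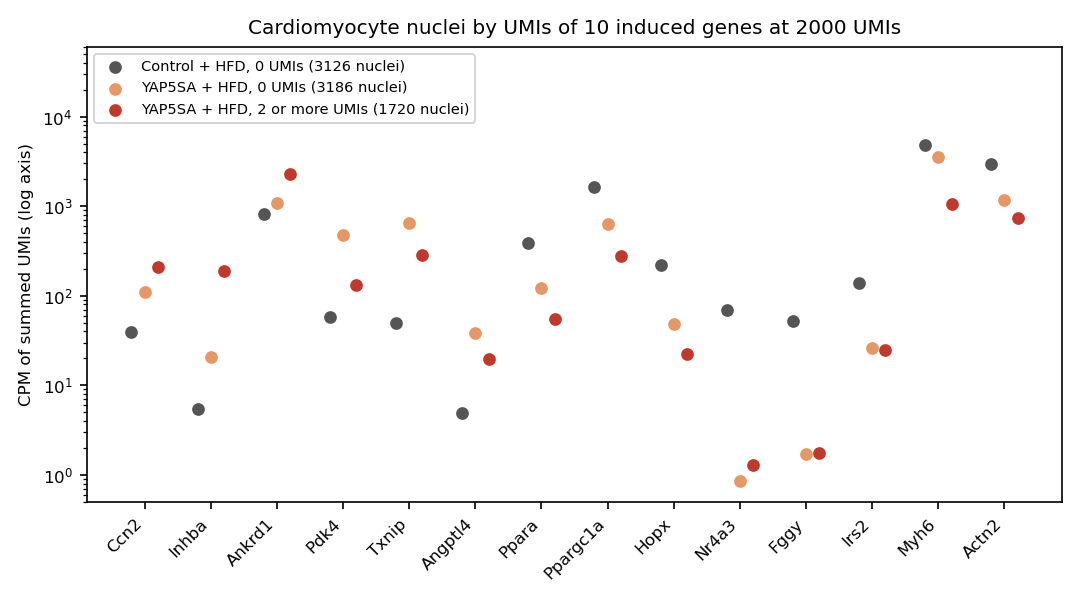
CPM of summed UMIs (log axis) for 14 genes in cardiomyocyte nuclei of control on HFD with 0 UMIs of the 10 genes (3126 nuclei), YAP5SA on HFD with 0 (3186 nuclei) and YAP5SA on HFD with 2 or more (1720 nuclei). Pdk4, Txnip and Angptl4 are highest in the middle group, whereas Ccn2, Inhba and Ankrd1 are highest in the last.

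Single genes were also read as the share of nuclei with a UMI. At 2000 UMIs per nucleus, Txnip was found in 9.02% of control and 60.4% of YAP5SA cardiomyocyte nuclei (24.9% and 84.8% unthinned, at median depths of 6497 and 5233 UMIs), and in 13.6% and 22.9% of other cells. Pdk4 was found in 9.1% and 39.6% (21.4% and 61.4% unthinned), against 1.69% and 1.63% of other cells, whose median depths were 4135.5 and 3490 UMIs. Ppara was found in 50.2% and 17.9% (80.1% and 37.3% unthinned), against 3.12% and 1.24% of other cells. Pak3 was found in 1.79% and 20.4% (5.77% and 26.4% unthinned), against 2.44% and 4.21% of other cells, and the control share lay at or below that background. Without 2 small clusters of other cells described below, the background was 2.43% and 3.19%. Spp1, the cytokine osteopontin (chr5:104435118-104441050 of mm10), had 0 UMIs in control cardiomyocytes and 486 in YAP5SA, at least 126-fold higher against a floor of 3 UMIs over the control sum. At 2000 UMIs it was found in 0% and 2.24% of cardiomyocyte nuclei (0% and 5.58% unthinned). A count of 0 allows up to 0.0838% of the 3581 control nuclei to hold a UMI at this depth, and it does not limit the share that expresses the gene. The other cells of YAP5SA held it in 4.01% of nuclei, above the cardiomyocyte share, so the latter was not read as expression.

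The other cells differed too, although the promoter of the transgene is that of cardiomyocytes. Over the sums of 4610 control and 4649 YAP5SA nuclei, 640 of 10600 measured genes were higher (6.04%) and 189 lower (1.78%). The share of higher genes among those past 2-fold was 77.2% and went to 63.1% and 58.3% under the other scalings. The median share of mitochondrial UMIs was 0.582% in control and 0.234% in YAP5SA (0.654% and 0.583% on chow), and its part in these values was not tested. Some clusters of nuclei under the gate held cardiomyocyte genes, or genes higher in YAP5SA cardiomyocytes, among their leading genes. An unnamed cluster of 53 YAP5SA and 0 control nuclei held Cemip, Pak3, Scel and Ptchd4 there, and another of 79 and 56 held Pdk4, Myl7 and Myh6. The marker list with the largest share passing was that of fibroblasts in both, with 3 markers in the former and 10 in the latter. The median depth of the latter was 1959 UMIs. What type of cell they hold was not tested. Without both clusters, an alternative chosen after seeing the data, 644 genes were higher and 194 lower. Clustering of these nuclei and markers gave classes that are called "-like" because they rest on markers alone; haemoglobin genes were left out of the naming after they were seen in every cluster. Macrophage-like nuclei made up 4.75% of other cells in control (219 nuclei, exact 95% interval 4.15 to 5.4) and 12.2% in YAP5SA (565 nuclei, 11.2 to 13.1). A further cluster of 158 control and 83 YAP5SA nuclei stayed unnamed. Its first leading gene was Zfp804b, and Cd86, Mrc1, Aoah and F13a1 were also among its leading genes. More of the fibroblast than of the macrophage markers passed in it, and its median depth was 9202 UMIs. Macrophage, fibroblast and endothelial markers summed to 1680, 3660 and 2720 CPM in it, against 6540, 1220 and 465 CPM in macrophage-like nuclei. With this cluster counted in, the shares were 8.18% (7.4 to 9.01) and 13.9% (13 to 15). Endothelial-like nuclei were 14.6% (672, 13.6 to 15.6) and 9.46% (440, 8.64 to 10.3), and epicardial-like nuclei 7.27% (335, 6.53 to 8.05) and 3.96% (184, 3.42 to 4.56). Fibroblast-like nuclei, at 45.7% (2108, 44.3 to 47.2) and 47.6% (2211, 46.1 to 49), and endocardial-like nuclei, at 12.1% (560, 11.2 to 13.1) and 12.7% (590, 11.7 to 13.7), had overlapping counting intervals. Pericyte-like nuclei were 3.19% (147) and 4.5% (209). A share of nuclei moves with every other share, no replicate shows its spread, and 8.52% and 6.67% of other cells stayed unnamed. Clusters were largely split by library: of the fibroblast-like clusters, one held 78 control and 1106 YAP5SA nuclei and another 874 and 59, and of the macrophage-like clusters, one held 18 and 390 and another 180 and 21. The gate transcripts of cardiomyocytes, which free RNA can carry into other nuclei, summed to between 940 and 1773 CPM in the 6 classes of control and between 458 and 1888 CPM in those of YAP5SA, and were lower in YAP5SA in all but pericyte-like nuclei.

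**Figure D5:**
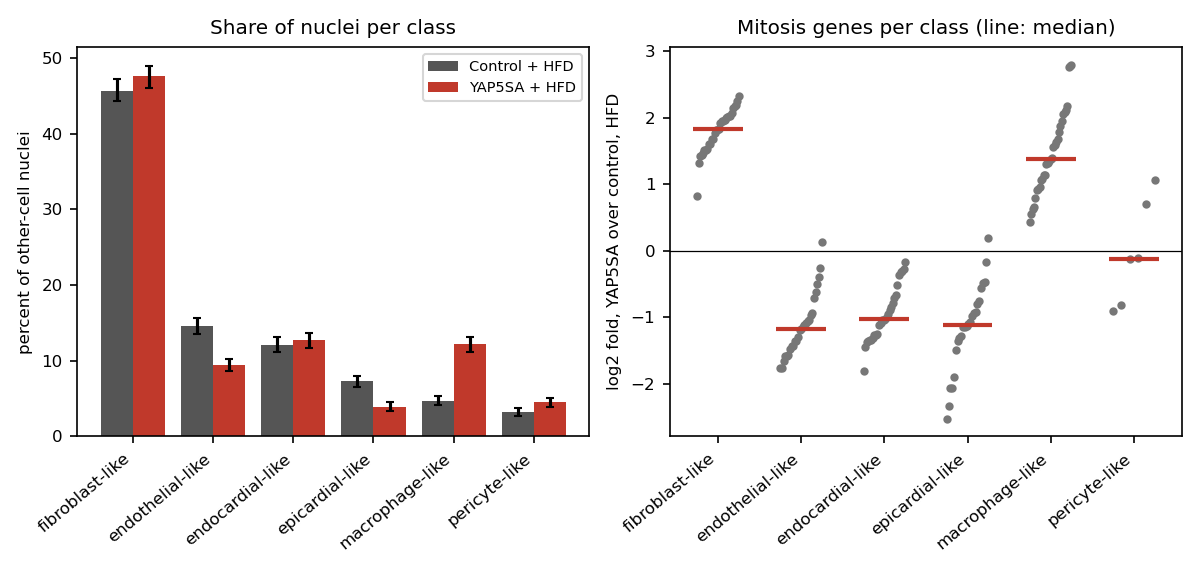
Left, percent of other-cell nuclei in each of 6 classes in control on HFD and YAP5SA on HFD, with exact 95% intervals as bars. Right, log2 fold of each measured mitosis gene in each class, with a line at the median; the fibroblast-like (1.83) and macrophage-like (1.38) medians lie above 0, and the endothelial-like (-1.17), endocardial-like (-1.03) and epicardial-like (-1.12) medians below it.

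Fibroblast-like nuclei of YAP5SA hearts held more transcripts of division, and a cluster led by such genes was a larger part of the class there. Of 30 measured mitosis genes, 29 were higher and 0 lower (median 1.83), where 7.83% of 10038 measured genes were higher and 2.55% lower (all-gene median 0.10). Prc1, which bundles the central spindle, had 40.3 and 183 CPM in control and YAP5SA (2.18, 2.03 to 2.34), and the cytokinesis kinesin Kif23 had 24.96 and 114 CPM (2.19, 1.99 to 2.4). That cluster, with Top2a and Prc1 among its leading genes, made up 4.46% of the class in control (94 nuclei, exact 95% interval 3.62 to 5.43) and 23.3% in YAP5SA (515 nuclei, 21.5 to 25.1). Without it, 6 mitosis genes were measured, and 2 of them were higher (median 0.96). Of 28 S phase genes, 20 were higher and 0 lower (median 1.17). Of 28 activation genes, 12 were higher and 0 lower (median 0.48): Thbs4 had 2.63 and 60.3 CPM (4.5, 3.96 to 5.15), Col8a1 244 and 1835 CPM (2.91, 2.85 to 2.97) and the transcription factor Runx1 7.58 and 59.7 CPM (2.97, 2.63 to 3.35). The interstitial collagens Col1a1, at 959 and 665 CPM, and Col3a1, at 2651 and 1650.4 CPM, lay below 0 without reaching 2-fold (-0.53 and -0.68). Since different clusters hold most of the class in each library, a change within cells and a change of mixture cannot be told apart.

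The strongest folds in these nuclei belonged to Prg4, the lubricating proteoglycan lubricin, at 1.52 and 65.3 CPM (5.38, 4.7 to 6.28), and to Add2, an adducin of the membrane skeleton, at 0.606 and 31.2 CPM (5.57). A cluster of 51 YAP5SA and 1 control nuclei held 428 of the 616 Prg4 UMIs of YAP5SA. Without it Prg4 had 1.52 and 20.5 CPM (3.71, 3 to 4.62) and Add2 0.607 and 29.8 CPM (5.5). Thsd4, a protein of the elastic fibre, was among the lowest at 562 and 62.9 CPM (-3.16, -3.28 to -3.04), and Eln was lower at 1085 and 363 CPM (-1.58). Among growth factor ligands, 5 of 25 were higher and 5 lower. Angpt2 was higher (36.6 and 145 CPM, 1.99) and Fgf10 lower (21.9 and 4.45 CPM, -2.29). The chemokine Ccl2, which draws monocytes, had 10.6 and 56.2 CPM (2.4, 2.1 to 2.72), and Il34, another ligand of the Csf1 receptor, had 7.48 and 21.9 CPM (1.55). YAP targets as a list were near 0 (3 of 22 higher, median 0.04), with Ccn2 at 40.1 and 216 CPM (2.43, 2.27 to 2.59). Of 25 glucocorticoid, clock and insulin-responsive genes, 1 was higher and 5 lower, among them Per1 (56.3 and 10.3 CPM, -2.45), as in cardiomyocytes.

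Macrophage-like nuclei also held more mitosis transcripts in YAP5SA, and genes of their activation states stood at different levels. Of 31 mitosis genes, 23 were higher and 0 lower (median 1.38), where 9.33% of 10296 measured genes were higher and 6.69% lower (all-gene median 0.07). Spp1 had 0 UMIs in control and 441 in YAP5SA (207 CPM), at least 52.3-fold higher against a floor of 3 UMIs over the control sum. Of 25 activation genes, 7 were higher and 2 lower (median -0.02). With the unnamed cluster of 158 control and 83 YAP5SA nuclei counted in, 11 of 24 were higher and 1 lower (median 0.85). In that cluster, fibroblast and endothelial markers each summed to more CPM than macrophage markers. Ccr2, the receptor of monocyte-derived cells, had 25.1 and 299 CPM (3.54, 2.92 to 4.32). Trem2, a lipid-sensing receptor, had 7.91 and 44.1 CPM (2.37, 1.3 to 3.96), and Arg1, arginase, had 5.28 and 32.4 CPM (2.46, 1.2 to 4.53). The scavenger receptors Stab1, at 899.6 and 305 CPM (-1.56, -1.72 to -1.4), and Cd163, at 165 and 65.3 CPM (-1.34, -1.7 to -0.98), both typical of resident macrophages, were lower. The control sum held 758120 UMIs and the YAP5SA sum 2129830, and here too the clusters that make up the class differ between libraries. Growth factor ligands of these nuclei had 1 of 20 higher and 6 lower (median -0.65).

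The sums of vessel lining, endocardial-like and epicardial-like nuclei held fewer mitosis transcripts in YAP5SA, but in endothelial-like nuclei few of these genes were lower without 1 small cluster. In endothelial-like nuclei, 19 of 27 mitosis genes were lower and 0 higher (median -1.17), where 2.76% of 9886 measured genes were lower and 5.71% higher. A cluster led by cycling genes such as Ube2c and Kif11 made up 7.89% of the class in control (53 nuclei, exact 95% interval 5.96 to 10.2) and 1.82% in YAP5SA (8 nuclei, 0.788 to 3.55). Without it, 1 of 16 measured mitosis genes was lower (median 0.06). In endocardial-like nuclei, 15 of 28 were lower and 0 higher (median -1.03, background 2.81% lower and 4.89% higher), and in epicardial-like nuclei 14 of 24 (median -1.12, background 4.5% lower and 5.63% higher). Without an epicardial-like cluster of 13 control and 3 YAP5SA nuclei that held Ube2c among its leading genes, only 7 mitosis genes were measured. Of these 7, 2 were lower, and their median stayed below 0 (-0.80). In pericyte-like nuclei only 6 mitosis genes were measured and 1 was higher (background 8.14% higher and 6.01% lower), with 0 counting intervals above 0. Of 21 S phase genes there, 9 were lower, but the counting interval of only 1 lay wholly below 0. The pericyte-like sums held 514453 UMIs in control and 509601 in YAP5SA. Apln, the apelin of sprouting tip cells, had 49.7 and 7.799 CPM in endothelial-like nuclei (-2.61, -3.77 to -1.75), and Esm1, a further tip cell gene, was higher (0.737 and 20.3 CPM, 4.49, 2.78 to 7.9) on 2 and 26 UMIs. The endothelial growth factor Nrg1, which acts on cardiomyocyte ERBB receptors, had 37.6 and 124 CPM there (1.72, 1.35 to 2.1). In endocardial-like nuclei, Nrg1 had 2820.2 and 1459 CPM (-0.95, -1.01 to -0.89), and Angpt1 had 143 and 25.98 CPM (-2.45, -2.88 to -2.07). Inhba, higher in cardiomyocytes, was also higher in endocardial-like nuclei, at 48.8 and 280.1 CPM (2.52, 2.26 to 2.79). Endocardial-like clusters too were filled differently by the libraries, with 126 control and 351 YAP5SA nuclei in the one led by Inhba among others, and 264 and 27 in another. Within the former, Inhba had 184.9 and 458 CPM (1.3, 1.02 to 1.61) and Nrg1 628 and 83.8 CPM (-2.9, -3.22 to -2.6). The difference in mitosis genes between classes was not tested.

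In epicardial-like nuclei, 7 of 26 YAP targets were higher and 1 lower (median 0.18), and 3 of 10 PPAR-responsive genes were higher and 0 lower (median 0.71). Among their strongest folds were those of Adam23, an integrin-binding protein (1.801 and 76.9 CPM, 5.21, 3.79 to 7.74), and the matrix protein gene Itgbl1 (189 and 1904 CPM, 3.33, 3.16 to 3.52). Pericyte-like nuclei had 5 of 10 PPAR-responsive genes higher and 0 lower (median 0.89), with gate transcripts of cardiomyocytes at 1773 and 1888 CPM in these sums, whose part was not tested. Among immediate early genes, 5 of 17 were lower and 2 higher in endocardial-like nuclei (median -0.94, background 2.81% lower and 4.89% higher). In endothelial-like nuclei, 3 of 16 were lower and 1 higher (median -0.51, background 2.76% and 5.71%). Fibroblast-like nuclei had 4 of 18 lower and 4 higher (median -0.27, background 2.55% and 7.83%). Epicardial-like nuclei had 4 of 18 lower and 1 higher (median -0.47, background 4.5% and 5.63%). Pericyte-like nuclei had 2 of 14 lower and 3 higher (median 0.22, background 6.01% and 8.14%). The lower ones in fibroblast-like nuclei included Nr4a3, at 36.2 and 5.196 CPM (-2.79, -3.26 to -2.37), the first of the low genes in cardiomyocytes.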

How the data were processed

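Per the submitters' processing notes, reads were aligned to mm10 with Cell Ranger 7.1.0. The matrices deposited by the authors hold raw UMI counts per gene and nucleus, without normalization, from 10x 3′ v3 libraries sequenced on a NovaSeq instrument. The annotation used for counting and the handling of introns are not stated in the sources used here. Of 32291 features, 32158 matched GENCODE vM21 by identifier, which gave coordinates.

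Nuclei were filtered and gated as described above, doublets included, and UMIs were summed per library and class with Python 3.11.15, numpy 2.4.6, scipy 1.17.1 and pandas 2.3.3. Log2 folds used a prior of 0.5 counts with exact conditional binomial 95% intervals, and shares used Clopper-Pearson intervals. UMIs are counted molecules, and all intervals and floors cover counting error only. Genes under a mean of 10 CPM were not measured. Other cells of the 2 HFD libraries were clustered without integration (scanpy 1.11.5, scikit-learn 1.9.0, igraph 0.11.9, 2000 variable genes, 30 components, 15 neighbours, resolution 1). Trimmed-mean factors came from edgeR 4.0.16 (R 4.3.3) as an alternative scaling, and no test was run. The calculation was tested on simulated data.

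Named genes were the 12 highest and 12 lowest in cardiomyocytes among genes whose interval excludes 0, without gate, predicted and mitochondrial genes, up to 6 members of each list, the 5 highest and lowest of each class with at least 100 nuclei in both libraries, the 6 most abundant genes of opposite sign on the diets, and Yap1, Xist and Ddx3y. The members and lists were chosen with earlier results of these data known. Some genes that these rules name are not reported here. Others are marked where they were named after their values were seen. Alternatives tried were the floor, fold limit, scaling, gate, filters, doublet removal, mean over nuclei and clustering resolution, and, after seeing the data, nuclei with 0 UMIs of the 10 genes and single clusters of other cells counted in or left out.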

Additional observations from a re-analysis of the deposited data

Results flagged for a closer look

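In cardiomyocytes, 13 of 8746 genes were at least 2-fold apart between YAP5SA and control on both maternal diets but in opposite directions. Far more were at least 2-fold apart in the same direction, 283 higher and 103 lower on both diets. With 1 library in each group the difference between diets was not tested. Log2 folds of 12 of them on HFD and on chow, in that order, follow, and intervals of counting error exclude 0 in each. Higher on HFD and lower on chow were the peptide transporter Slc15a2 (5.42 and -1.13), the lipase inhibitor Angptl4 (2.49 and -1.06) and the predicted gene Gm47712 (1.7 and -1.19). The same held for Art1 (1.3 and -1.03), nebulin, Neb (1.28 and -1.1), the flavin monooxygenase Fmo5 (1.07 and -1.23) and the thiolase Acaa2 (1.04 and -1.01). Lower on HFD and higher on chow were Nr4a1 (-2.53 and 2.06), Pde10a (-1.49 and 1.19), Gm15934 (-1.38 and 1.09), the smooth muscle myosin Myh11 (-1.26 and 1.07) and Baiap2l1 (-1.13 and 1.61). Myh11 is also one of 8 smooth muscle markers, which summed to 643, 753, 651 and 376 CPM in the cardiomyocyte sums (control and YAP5SA on chow, then control and YAP5SA on HFD). The part of such RNA in its value was not tested.

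The added sequence named nsp13, which the labels do not describe, entered none of the comparisons. It had 244 UMIs over all barcodes of YAP5SA on HFD and 1 in control on HFD, and 599 and 0 in the chow pair. In YAP5SA on HFD, 2.69% of cardiomyocyte nuclei (158) and 0.667% of other cells (31) held a UMI of it. The corresponding shares in YAP5SA on chow were 6.99% and 1.29%.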

How the results depend on the processing

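No paired analysis was possible because each group is 1 library. For the same reason no library could be left out, and every difference rests on 2 libraries whose spread between hearts is unknown. Of the alternative values for counts and shares, 274 stayed within 1.5 times the main count or within the interval of the share, and 82 moved. Of 329 medians of gene lists in cardiomyocytes, 136 moved by at least 0.1 and 29 were of opposite sign. Among 45 named genes there were 462 alternative log2 folds, of which 131 lay outside the main counting interval. For genes at least 2-fold apart in the main setting, 0 of these values were of opposite sign. Changes of sign in genes under 2-fold were not counted. Depth limits the rare classes most, above all genes near 10 CPM in the pericyte-like and epicardial-like sums.

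The floor on mean CPM set the counts. With a floor of 1 CPM, 1939 genes were higher and 645 lower in cardiomyocytes, 1854 and 508 in other cells, 2132 and 641 in fibroblast-like and 2139 and 1968 in macrophage-like nuclei, with 11 macrophage activation genes higher there. With a floor of 50 CPM these counts were 208 and 116, 136 and 72, 191 and 103, and 242 and 229. At that floor, cardiomyocytes had 6 YAP targets, 4 PPAR-responsive genes, 4 fibrillar matrix genes and 2 growth factors higher, and 0 immediate early genes and 2 metabolic regulators lower. Fibroblast-like nuclei then had 14 mitosis and 2 S phase genes higher, and macrophage-like nuclei 13 mitosis and 3 activation genes.

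With a fold limit of 1.5, 1562 genes were higher and 819 lower in cardiomyocytes, 1521 and 621 in other cells, 1765 and 671 in fibroblast-like and 2119 and 1486 in macrophage-like nuclei. Lower members in cardiomyocytes were then 8 immediate early, 9 adult sarcomere, 8 calcium and ion channel, 10 metabolic regulator and 4 fatty acid genes. Higher members were 7 fatty acid and 15 cytoskeleton genes.

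Trimmed-mean scaling gave 284 lower genes in other cells, 7 lower immediate early and 6 lower sarcomere genes, 1 higher fatty acid gene and 2 higher basement membrane genes. Median-of-ratios scaling gave 438 lower genes in cardiomyocytes, 320 in other cells, 7 immediate early, 6 sarcomere and 7 metabolic regulator genes lower, and 1 fatty acid and 2 basement membrane genes higher. Under both scalings 7 of the PPAR-responsive genes and 9 of the YAP targets were higher.

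In nuclei with 0 UMIs of the 10 genes, an alternative chosen after seeing the data, 2 YAP targets, 4 fatty acid, 0 basement membrane, 3 fibrillar matrix, 2 growth factor and 3 cytoskeleton genes were higher and 1 fatty acid gene lower. There 0 of 19 mitosis genes lay above 0. A mean over nuclei gave 1 higher fatty acid gene. A limit of 1% mitochondrial UMIs and a gate of 1.6% each gave 1 lower fatty acid gene.

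The cardiomyocyte share in control and YAP5SA was 54.5% and 60.8% with at most 1% mitochondrial UMIs, 41.4% and 47.7% with a gate of 1.6%, and 41.8% and 52.7% without marked doublets. With the unnamed cluster of 158 control and 83 YAP5SA nuclei, the macrophage-like shares were 8.18% and 13.9%, with 11 activation genes higher. Without the clusters led by cycling genes, 2 fibroblast-like mitosis genes were higher, and 1 endothelial-like and 2 epicardial-like ones were lower. There fewer genes reached the floor. These settings were chosen after seeing the data. At a resolution of 0.5 the fibroblast-like share of YAP5SA was 49.1% and the endocardial-like share of control 11.2%. At a resolution of 2 the fibroblast-like shares were 39% and 45%, and the endocardial-like and epicardial-like shares of control 10.5% and 6.29%. For each of these values that moved, the cause was not tested.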

Other observations

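Some genes differed in the same direction in different classes of nuclei, and they were singled out after their values were seen. Fggy, the carbohydrate kinase with 49.9, 21.8, 53.4 and 1.76 CPM in the cardiomyocyte sums, had 52.2 and 4.56 CPM in control and YAP5SA fibroblast-like nuclei on HFD, 74.8 and 3.9 in endothelial-like, 67.7 and 1.299 in endocardial-like, 200.5 and 9.39 in macrophage-like, 117 and 9.81 in pericyte-like and 89.5 and 5.59 in epicardial-like nuclei. YAP5SA on HFD was low in all 6 classes, and on chow the sums of other cells stood at 64.4 and 47.7 CPM. Zfp804b, a zinc finger gene, had 100 and 0 UMIs in endothelial-like nuclei, at least 15.7-fold lower against a floor of 3 UMIs over the YAP5SA sum, and 100.2 and 4.23 CPM in macrophage-like nuclei. Over all other cells of the 4 libraries Zfp804b had 263.5, 55.4, 267 and 85.3 CPM, low in both YAP5SA libraries. Zfp804b was also the first leading gene of the pericyte-like cluster, and the part of RNA from such nuclei in these values was not tested.

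Slc15a2 was the gene whose order of libraries was unlike that of its neighbours among the 12 highest. In the sums of other cells it had 22.8, 13.8, 1.12 and 15.7 CPM, so control on HFD was low there as it was in cardiomyocytes. In endothelial-like nuclei on HFD it had 0.737 and 49.9 CPM. In macrophage-like nuclei it had 3.96 and 27.2 CPM. Iigp1, an interferon-induced GTPase that acts against intracellular parasites, had 6.097, 6.01, 4.55 and 42.1 CPM in cardiomyocytes, where YAP5SA on HFD alone was high (3.21, 2.96 to 3.47). It had 5.89 and 63.2 CPM in endothelial-like nuclei on HFD (3.39, 2.64 to 4.3) and 16.8 and 18.2 CPM in epicardial-like nuclei.

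Among the lists not described above, of 15 measured genes of sterol and fatty acid synthesis in cardiomyocytes, 2 were at least 2-fold higher and 1 lower (background 7.49% and 3.07%, median -0.25). Me1, which makes NADPH for lipid synthesis, had 65.8, 72.9, 39.8 and 86.4 CPM (1.12, 1.02 to 1.21), and the fatty acid elongase Elovl5 had 38.6, 27.1, 46.4 and 22.3 CPM (-1.06, -1.18 to -0.94). Of 18 genes of endothelial growth and angiogenesis in the cardiomyocyte sums, 1 was higher and 4 lower (median -0.49), among them the VEGF receptor Kdr with 14.8, 12.6, 27.5 and 12.1 CPM (-1.19, -1.35 to -1.02), where endothelial markers as a whole summed to 733 and 400 CPM on HFD.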
